A study of Mus musculus with 4 samples.

Results

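Open chromatin was examined at 9 genes of the Notch pathway in epidermal keratinocytes, at the receptors Notch1, Notch2 and Notch3, the ligands Jag1, Jag2 and Dll1, the DNA-binding factor Rbpj, and the target genes Hes1 and Hey1. The assay was ATAC-seq, which uses the Tn5 transposase to cut and tag accessible DNA, on 2 WT and 2 Mapk8-KO libraries. All mice were adult females on a C57BL/6 background that had received a cream with 5% imiquimod on the skin for 8 days, which inflames the epidermis, and there was no untreated group. Mapk8 encodes the kinase JNK1, and per the study's methods floxed Mapk8 was deleted with a Cre recombinase under the keratin 14 promoter (KRT14-cre), so the deletion is that of the epidermis. The sorted cells were EpCam+ and CD49f-high, a gate that favours basal cells, and control mice were littermates; the labels do not say which Mapk8 or Cre alleles the WT mice carried. Peaks of the 4 libraries were merged wherever they shared 1 bp, and regions within the body of a listed gene or within 25 kb of it were kept. This gave 80 of the 82641 regions of the merged atlas, and 47 of the 80 were called in all 4 libraries (58.8%, against 48.6% of the atlas). Regions within 2 kb of any start site, called promoters here, numbered 21 (26.2%, against 26.7%). The labels do not say whether a library came from 1 mouse or from pooled mice, and p-values measure only the spread between these libraries.

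Notch receptors are cut after a Jagged or Delta ligand on a neighbouring cell binds them, and the freed intracellular part enters the nucleus. There it joins RBPJ, the protein that recognises DNA, and switches on genes such as Hes1 and Hey1, which encode repressors. In the epidermis the pathway is known for its part in the step from basal to suprabasal keratinocytes.

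The 4 lists held between 49856 and 69927 peaks. Depth was judged from the summit pileup, the number of fragments stacked at a peak's highest point. With WT 1 set to 1, the median over shared regions was 0.694 for WT 2, while Mapk8-KO 1 had 1.10 and Mapk8-KO 2 had 0.612, so replicate 2 was the shallower library of both genotypes. Keratinocyte markers had a called region within 2 kb of a start site for 6 of 6 genes in WT 1, WT 2 and Mapk8-KO 1 and for 5 of 6 in Mapk8-KO 2. Krt14, the keratin of basal cells, was uneven among them. The highest percentile per library over its 2 regions was 29.8 and 9.93 in WT and 96.3 and 96.0 in Mapk8-KO. One of the 2, chr11:100207510-100207834, had 36 fragments in WT 1 and 199 and 109 in Mapk8-KO. It was not called in WT 2, so the WT 2 percentile is that of the other region. Of 4 suprabasal markers all had a region in at least 1 library and 3 in all libraries, and Ivl, an envelope protein gene, was higher by rank in Mapk8-KO (log2 −0.67 ± 0.22 SE, limma adjusted p = 0.142). None of 5 immune markers had one in any library. Of 3 markers each, 2 endothelial, 2 fibroblast and 2 melanocyte genes had one in at least 1 library. Pdgfra, of fibroblasts, was also higher by rank in Mapk8-KO (39.0 and 29.8 against 54.7 and 50.9, log2 −0.46 ± 0.25 SE, limma adjusted p = 0.475). Col1a1, of fibroblasts, and Pecam1, of endothelium, gave 0.42 ± 0.31 and 0.24 ± 0.26 (SE, limma adjusted p = 0.655 and 0.784). The melanocyte genes Dct and Pmel gave −0.49 ± 0.21 and −0.32 ± 0.23 (SE, limma adjusted p = 0.334 and 0.645). The part of these markers in the results was not tested. The Mapk8 promoter region was called in all 4 libraries, and its difference was not significant (log2 −0.26 ± 0.18 SE, limma adjusted p = 0.615). It cannot show the deletion of exons.

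Matches to the motifs of RBPJ, the pathway's DNA-binding factor, and of AP-1 are described first. Binding of these factors was not measured. The RBPJ motif was searched as GTGGGAA and the AP-1 motif, bound by Fos and Jun, as TGAGTCA or TGACTCA, on both strands within 100 bp of a region's strongest summit. No RBPJ match overlapped an AP-1 match in the member regions. The window held an RBPJ motif for 14 of the 80 regions (17.5%), against 4.56% of the whole atlas, and an AP-1 motif for 16 (20%), against 23.8%. For 2 of the 14, both at Notch1, the match lay just outside the called interval, and with matches inside it only, the count was 12 (15%, against 4.34%). The share with an RBPJ motif was 19% in promoter regions, against 4.18% of all promoter regions, and 16.9% outside promoters, against 4.69%. Over whole regions rather than windows it was 17.5%, against 10.6% of the atlas, so the excess was smaller there. These shares are descriptions, and no test was made on them. Each sequence below is on the strand of the gene and is taken from the RefSeq copy of mm10 (GRCm38.p6), with the motif in capitals. The promoters of Hes1 and Rbpj are shown because they hold an RBPJ motif near the summit, the Jag1 regions because they make up 5 of the 14, and the Notch2 region because it was called in WT only.
Hes1 promoter, chr16:30065229-30065295, plus strand: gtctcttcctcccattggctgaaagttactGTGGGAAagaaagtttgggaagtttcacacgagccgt
Rbpj promoter, chr5:53589293-53589359, plus strand: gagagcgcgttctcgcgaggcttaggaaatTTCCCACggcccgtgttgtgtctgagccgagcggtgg
Jag1 intron, 8518 bp from the start, chr2:137108130-137108196, minus strand: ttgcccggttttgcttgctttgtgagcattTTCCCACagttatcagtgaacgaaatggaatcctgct
Jag1 intron, 18227 bp, chr2:137098346-137098412, minus strand: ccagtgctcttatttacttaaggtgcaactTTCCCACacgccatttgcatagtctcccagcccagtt
Jag1 intron, 31228 bp, chr2:137085360-137085426, minus strand: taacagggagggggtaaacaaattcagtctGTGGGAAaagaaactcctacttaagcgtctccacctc
Jag1 downstream, 35882 bp, chr2:137080741-137080807, minus strand: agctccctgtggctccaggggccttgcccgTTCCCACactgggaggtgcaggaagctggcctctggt
Jag1 downstream, 51879 bp, chr2:137064725-137064814, minus strand: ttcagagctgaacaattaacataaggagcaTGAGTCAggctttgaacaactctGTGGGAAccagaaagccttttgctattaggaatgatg
Notch2 upstream, 11599 bp, chr3:98001841-98001907, plus strand: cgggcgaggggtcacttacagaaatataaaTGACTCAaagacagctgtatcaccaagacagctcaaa

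Motifs fell unevenly on the 9 loci. RBPJ motifs lay in the windows at 8 of them, all but Dll1, and inside the intervals at 7, without Notch1. Jag1 had the most. In the Hes1 promoter the motif lay 9 bp from the summit, and the core TGGGAA occurred 2 times in the stretch shown. AP-1 motifs occurred at 6 loci, with 4 regions each at Notch2 and Rbpj, and at none of the 10 Hes1, 4 Dll1 and 2 Hey1 regions. None of the 21 member regions at promoters had an AP-1 motif in the window, against 12% of all promoter regions, but over whole intervals 3 had one (14.3%, against 18.3%). Outside promoters 16 of 59 had one (27.1%), close to the 28.1% of all such regions. The Jag1 region 51879 bp from the start held both motifs.

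**Figure D1:**
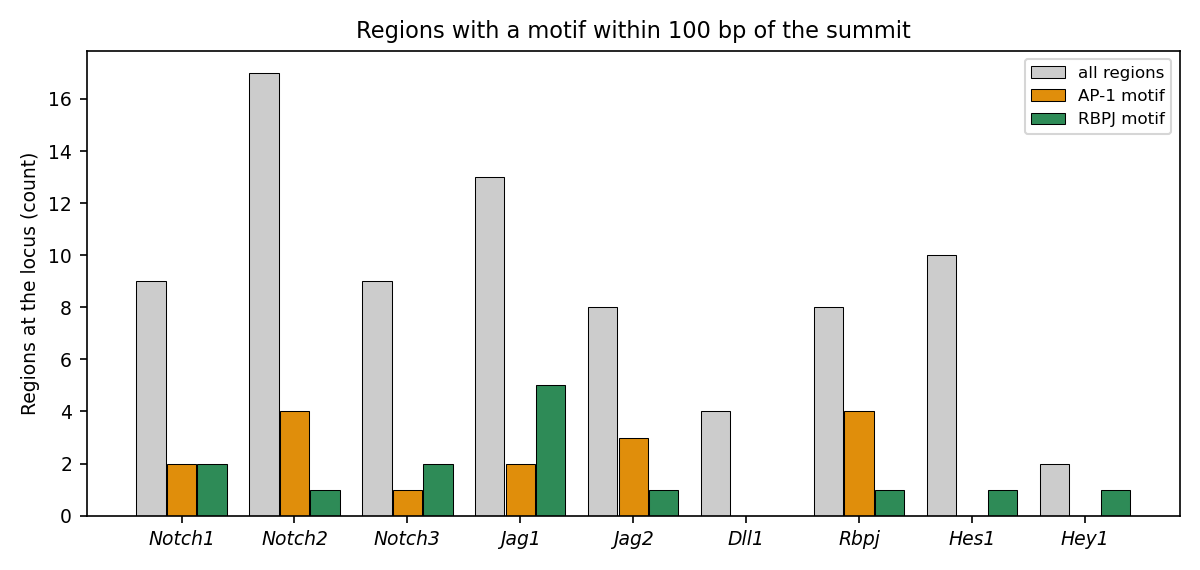
Number of regions at each locus (grey), with an AP-1 motif (orange) and with an RBPJ motif (green) within 100 bp of the strongest summit. Jag1 had 5 of the 14 regions with an RBPJ motif, and Dll1, Hes1 and Hey1 had no region with an AP-1 motif.

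Regions were most dense at Hes1 and Jag1 and least dense at Rbpj and Hey1. Per 100 kb of gene body and flanks, Hes1 had 18.7 regions, Jag1 15.3, Jag2 11.1, Notch3 9.37, Notch2 9.10, Notch1 8.28, Dll1 6.72, Hey1 3.71 and Rbpj 3.32. For 66 of the 80 the nearest start site of a coding gene was that of the listed gene; the other 14 lay nearer to a neighbour. At Jag2, 4 of 8 were nearest to Nudt14.

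**Figure D2:**
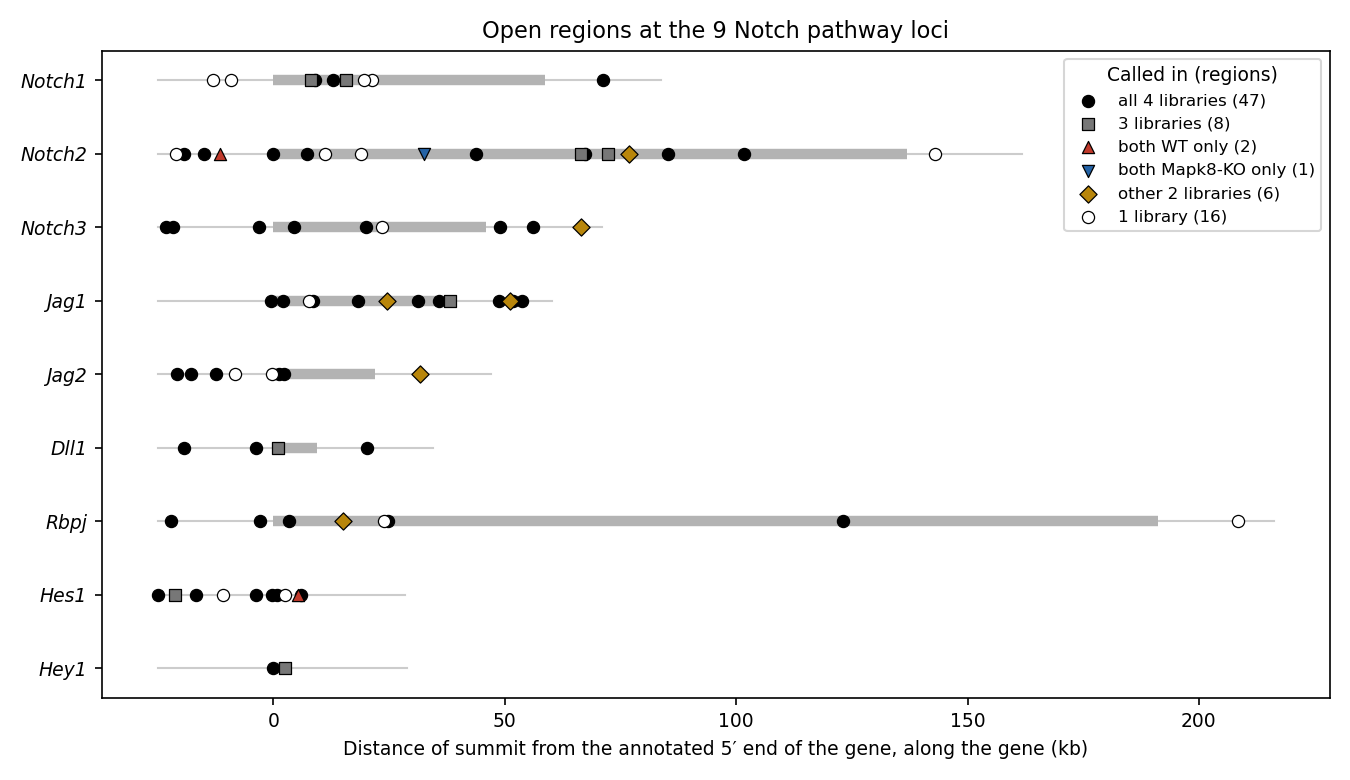
Summits of the 80 regions along the 9 loci, as distance in kb from the annotated 5′ end of each gene; thick grey bars are gene bodies, thin lines the flanks of 25 kb, and symbols show which libraries called the region. Of the 80 regions, 47 were called in all 4 libraries, 2 in both WT libraries only and 1 in both Mapk8-KO libraries only.

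The promoters of the 9 genes ranked very differently. Each peak has a fold enrichment, its summit pileup over the local background, and its percentile is the share of peaks in the same list with a lower fold. Notch2 stood highest, at percentiles 82.2 and 88.2 in the WT libraries and 77.9 and 82.4 in the Mapk8-KO libraries, replicate 1 first. Hey1 followed at 69.8, 72.4, 72.6 and 81.6 in the same order of libraries, and the ranges of these genes overlapped. Rbpj stood at 55.7, 58.1, 62.1 and 64.9 and Jag1 at 55.5, 46.2, 63.1 and 64.6, again with overlap. Jag2 (22.3, 34.3, 36.0 and 25.6), Notch1 (24.7, 13.4, 19.8 and 22.6) and Hes1 (24.5, 21.1, 12.9 and 1.91) formed a lower set, in which neighbours overlapped. Dll1 was lowest, at 2.67, 2.94 and 0.297, and it was not called in Mapk8-KO 2. No region was called within 2 kb of the Notch3 start site in any library, and the nearest was 3182 bp upstream. Across 21924 coding genes, 64.7% had a called region within 2 kb of a start site, and 8 of the 9 listed genes did.

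A low percentile did not mean few fragments. At the Jag1 promoter the pileup was in the 98.2, 97.8, 99.3 and 98.7 percentile of all pileups, above its percentile for fold in each library. The local background there was 17.9, 13.2, 23.9 and 12.8 fragments, against list medians of 3.36, 2.52, 3.69 and 2.47. The Rbpj promoter was alike, at backgrounds of 17.1, 12.9, 20.4 and 12.2. At the Hes1 promoter the background was 11.3, 7.89, 12.6 and 8.06. All of these backgrounds lay above the medians, and fold and pileup are given apart in what follows.

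Whether the loci differed between genotypes was asked first of the number of peaks. The WT lists held 72 and 56 peaks at the 9 loci, and the Mapk8-KO lists 68 and 51. As a share of each list they were 0.103%, 0.102%, 0.0977% and 0.102%. The mean was 0.103% ± 0.000622 in WT and 0.10% ± 0.00323 in Mapk8-KO (SD, n = 2 each; two-sided exact permutation p = 0.667, where the smallest possible is 0.3333). The Wilson 95% interval for WT 1 was 0.0818 to 0.130%, and such intervals cover counting error only. The shares of the genotypes overlapped.

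Few regions were called in 1 genotype only. Regions called in both WT libraries and no Mapk8-KO library numbered 2 of 80 (2.5%), against 2.17% of the atlas. Those called in both Mapk8-KO libraries and no WT library numbered 1 (1.25%), against 1.65%. All these peaks were weak. The WT region upstream of Notch2, chr3:98001775-98002030, had summits of 26 and 19 fragments, at percentiles of 3.36 and 1.55, and it held an AP-1 motif. The WT region 4379 bp from the nearest Hes1 start site, chr16:30069627-30069918, had 23 and 20 fragments, at percentiles of 0.112 and 0.278. The Mapk8-KO region in an intron of Notch2, chr3:98045865-98046179, had 19 and 9 fragments, at percentiles of 33.4 and 4.22. The smallest summit of any list was 8 to 10 fragments, so a region that was not called may still be open. Regions called in every library but Mapk8-KO 2 were more common, at 7 of 80 (8.75%), against 9.91% of the atlas, and 16 were called in 1 library (20%, against 21.7%), 9 of them in WT 1 alone (11.2%, against 9.08%). A further 6 were called in both replicates 1 only (7.5%, against 7.91%), and 1 in WT 1 and both Mapk8-KO libraries (1.25%, against 4.86%). The counts for 1 genotype only moved when single libraries were left out, as given with the processing below. Atlas shares in those settings were not computed.

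Signal was then compared over the regions called in all libraries. Summit pileups on a log2 scale, centred on the median of each library, were tested with limma over all 40159 such regions. None of the 47 member regions passed an adjusted p of 0.05, and the lowest adjusted p was 0.177. Over all regions 0.498% passed with higher values in WT and 0.11% with higher values in Mapk8-KO. At an unadjusted p under 0.05 there were 7 member regions (14.9%, against 11.3% of all), 3 higher in WT (6.38%, against 5.44%) and 4 in Mapk8-KO (8.51%, against 5.82%). Without Mapk8-KO 1, 3 member regions passed (6.38%), against 4.28% of all regions in the same fit. That fit leaves 1 Mapk8-KO library, which is assumed to vary as the WT pair does. With each of the other libraries left out instead, 0 passed. A fit on fold enrichment in place of pileup also called 0, with 2 at an unadjusted p under 0.05. Standard errors of the log2 difference ran from 0.17 to 0.30. The 95% interval lay within a change of 2-fold in either direction for 44 of the 47 regions, so a difference of less than 2-fold could have been missed. Of the log2 differences 23 were above 0 (48.9%, against 42.6% of all regions), with a median of −1.85e-05 against −0.054. Both WT libraries lay above both Mapk8-KO libraries in depth-scaled pileup at 12 of the 47 regions (25.5%, against 16.9%), and below them at 12 (25.5%, against 24.6%). With depth taken from ratios of regions to WT 1, these were 13 and 11, against 20.3% and 20.4%.

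**Figure D3:**
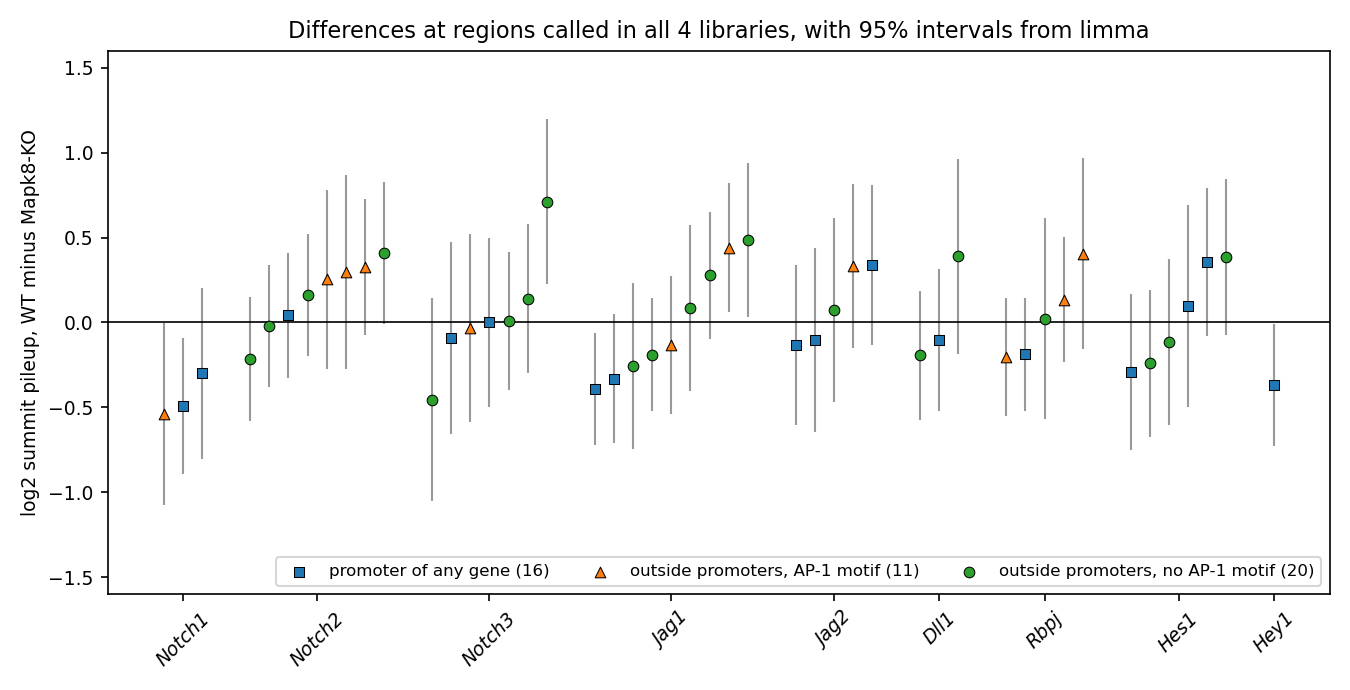
Difference in log2 summit pileup, WT minus Mapk8-KO, for each of the 47 regions called in all libraries, grouped by locus and ordered by size; bars are 95% intervals from limma without adjustment for the number of regions. Of the intervals 7 leave out 0, and no region passed an adjusted p of 0.05.

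Among the receptors, the largest difference lay in an intron of Notch3. Notch3 is a receptor that also serves as a target of the pathway. The region, chr17:32146522-32147003, is 20058 bp inside the gene and had 67 and 37 fragments in WT, against 50 and 18 in Mapk8-KO. Scaled to the depth of WT 1, these are 67.0, 53.3, 45.4 and 29.4, so both WT libraries were higher and Mapk8-KO 2 was lowest. The log2 difference was 0.71 ± 0.25 (SE), with an adjusted p of 0.177 by limma. Its percentiles of fold were 98.0, 92.4, 88.6 and 50.1, with Mapk8-KO 2 far below the others. Without Mapk8-KO 1 the difference was 1.02 ± 0.28 (SE; limma adjusted p = 0.0134), and without Mapk8-KO 2 it was 0.40 ± 0.26 (SE; limma adjusted p = 0.964). The region held neither motif.

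Notch1, the receptor best known for keratinocyte differentiation, had 3 regions called in all libraries, and none passed the test. At its promoter, chr2:26503442-26504137, the depth-scaled pileup was 39.0 and 37.5 in WT and 39.9 and 55.5 in Mapk8-KO, a log2 difference of −0.30 ± 0.26 (SE; limma adjusted p = 0.707). Without Mapk8-KO 2 it was −0.063. The region 3888 bp upstream of that start site, chr2:26507473-26507937, which holds an AP-1 motif, gave 36.0 and 25.9 against 41.7 and 47.4. Its difference was −0.54 ± 0.27 (SE; limma adjusted p = 0.439). The third region, at the promoter of the neighbour Sec16a, gave 55.0 and 72.1 against 70.8 and 111, so the genotypes overlapped (−0.49 ± 0.20 SE, limma adjusted p = 0.305). It gave −0.82 ± 0.22 without Mapk8-KO 1 (SE; limma adjusted p = 0.0128) and −0.17 ± 0.24 without Mapk8-KO 2 (SE; limma adjusted p = 0.988). The remaining 6 regions of the locus were each missed by at least 1 library.

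Notch2 had the most regions, 17. Of the 8 called in all libraries, 6 had a log2 difference above 0, where 42.6% of all regions did, and none passed the test. Its promoter, chr3:98013134-98014190, gave depth-scaled pileups of 91.0 and 104 in WT and 85.3 and 105 in Mapk8-KO, and the genotypes overlapped (log2 0.041 ± 0.19 SE, limma adjusted p = 0.961). An intronic region 101653 bp into the gene, chr3:98114951-98115531, was among the most enriched of the lists. It stood at percentiles 99.6, 97.9, 99.8 and 87.5. Its depth-scaled pileups of 134, 95.1, 113 and 89.8 overlapped between genotypes. The log2 difference of this intronic region was 0.16, and −0.086 without WT 1. That of the promoter was −0.053 without WT 2.

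Of the ligand genes, Jag1 had the most fragments. Its promoter, chr2:137116672-137117656, had 145 and 104 fragments in WT and 210 and 120 in Mapk8-KO, or 145, 150, 191 and 196 after scaling. Both Mapk8-KO libraries were higher, by a log2 difference of −0.39 ± 0.17 (SE; limma adjusted p = 0.332). The strongest Jag1 region outside promoters, chr2:137098002-137098953, holds an RBPJ motif and gave 143 and 146 against 164 and 165 (log2 −0.19 ± 0.17 SE, limma adjusted p = 0.720). Of the 9 Jag1 regions called in all libraries, 4 had a difference above 0. One, chr2:137080533-137081282, holds an RBPJ motif and gave 53.0 and 79.3 against 52.6 and 40.8 (log2 0.48 ± 0.23 SE, limma adjusted p = 0.403). Another, chr2:137067471-137068215, gave 101 and 95.1 against 79.9 and 65.3 (log2 0.44 ± 0.19 SE, limma adjusted p = 0.348).

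By rank, 2 member regions stood at least 10 percentile points higher in both Mapk8-KO libraries than in either WT library (4.26% of 47, against 3.78% of all regions), and none stood as much higher in WT (against 2.65%). Both were Jag1 regions with an RBPJ motif. One, chr2:137064674-137064940, lies in an intron of Slx4ip and had percentiles of 11.5 and 6.36 in WT and 26.4 and 27.3 in Mapk8-KO. The other, chr2:137085176-137085582, lies in an intron of Jag1 and had 21.9 and 15.6 against 36.0 and 52.9. Their depth-scaled pileups overlapped between genotypes, at 64.0 and 69.2 against 81.7 and 65.3, and at 37.0 and 49.0 against 41.7 and 62.1. Local backgrounds in the order of libraries were 14.6, 10.5, 16.8 and 6.16 at the first and 6.56, 5.89, 6.94 and 4.10 at the second, lowest in Mapk8-KO 2, and their part in the ranks was not tested. With percentiles taken among the 40159 shared regions, or with lists of equal length, neither region passed. The counts by rank also moved when single libraries were left out, as given with the processing below. An arm with 1 library meets the gap more easily, and shares over all regions in those settings were not computed.

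No region of Jag2 or Dll1 passed the test. The genotypes did not overlap at 4 of their 8 regions called in all libraries. Over all such regions, 16.9% had both WT libraries above and 24.6% had both Mapk8-KO libraries above. The Jag2 promoter, chr12:112928285-112929073, gave depth-scaled pileups of 40.0, 57.6, 49.9 and 55.5, with overlap (log2 −0.13 ± 0.24 SE, limma adjusted p = 0.883). A pair of regions upstream of Jag2, in Gm26583, was higher in both WT libraries. The first, chr12:112947348-112947777, holds an AP-1 motif and gave 48.0 and 57.6 against 38.1 and 45.7 (log2 0.33 ± 0.25 SE, limma adjusted p = 0.644). The second gave 51.0 and 60.5 against 47.2 and 40.8 (log2 0.34 ± 0.24 SE, limma adjusted p = 0.623). The Dll1 promoter, chr17:15375366-15376127, was called in 3 libraries, at 30, 24 and 29 fragments. A region 4654 bp upstream of the Dll1 start site, chr17:15380253-15381007, was higher in both Mapk8-KO libraries, at 78.0 and 83.6 against 87.1 and 98.0 (log2 −0.19 ± 0.19 SE, limma adjusted p = 0.752). One 19245 bp downstream of that start site was higher in both WT libraries, at 34 and 34.6 against 29.9 and 22.9 (log2 0.39 ± 0.29 SE, limma adjusted p = 0.652).

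At Rbpj, the gene of the pathway's DNA-binding factor, the promoter region chr5:53588935-53590806 was broad and gave depth-scaled pileups of 139 and 167 in WT and 161 and 188 in Mapk8-KO (log2 −0.19 ± 0.17 SE, limma adjusted p = 0.723). A region upstream of the annotated gene, chr5:53463077-53463539, with an AP-1 motif, ranked highest of all members on average. It stood at percentiles 99.8, 98.3, 99.2 and 98.5 and gave 114, 89.4, 92.6 and 91.5 after scaling, with overlap between genotypes (log2 0.13 ± 0.19 SE, limma adjusted p = 0.839).

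No promoter region of the target genes Hes1 and Hey1 passed the test. The Hes1 region with the RBPJ motif, chr16:30065126-30065411, has its summit 87 bp upstream of a start site and had 62 and 48 fragments in WT and 57 and 31 in Mapk8-KO. After scaling these were 62.0 and 69.2 against 51.7 and 50.6, so both WT libraries were higher (log2 0.36 ± 0.22 SE, limma adjusted p = 0.564). A second Hes1 promoter region, 1145 bp upstream, was higher in both Mapk8-KO libraries, at 47.0 and 47.6 against 55.4 and 60.4 (log2 −0.29 ± 0.23 SE, limma adjusted p = 0.681). The Hey1 promoter, chr3:8666860-8667816, had 93 and 67 fragments in WT and 112 and 90 in Mapk8-KO, or 93.0, 96.6, 102 and 147 after scaling. Both Mapk8-KO libraries were higher there (log2 −0.37 ± 0.18 SE, limma adjusted p = 0.430). The Hey1 difference was −0.63 ± 0.20 without Mapk8-KO 1 (SE; limma adjusted p = 0.0365) and −0.10 ± 0.20 without Mapk8-KO 2 (SE; limma adjusted p = 0.994). Among the 12 regions with an RBPJ motif in the window that were called in all libraries, 6 were higher in WT and 6 in Mapk8-KO, with log2 differences from −0.37 to 0.48. Of all regions 42.6% had a difference above 0, and of the 47 member regions 48.9% did.

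**Figure D4:**
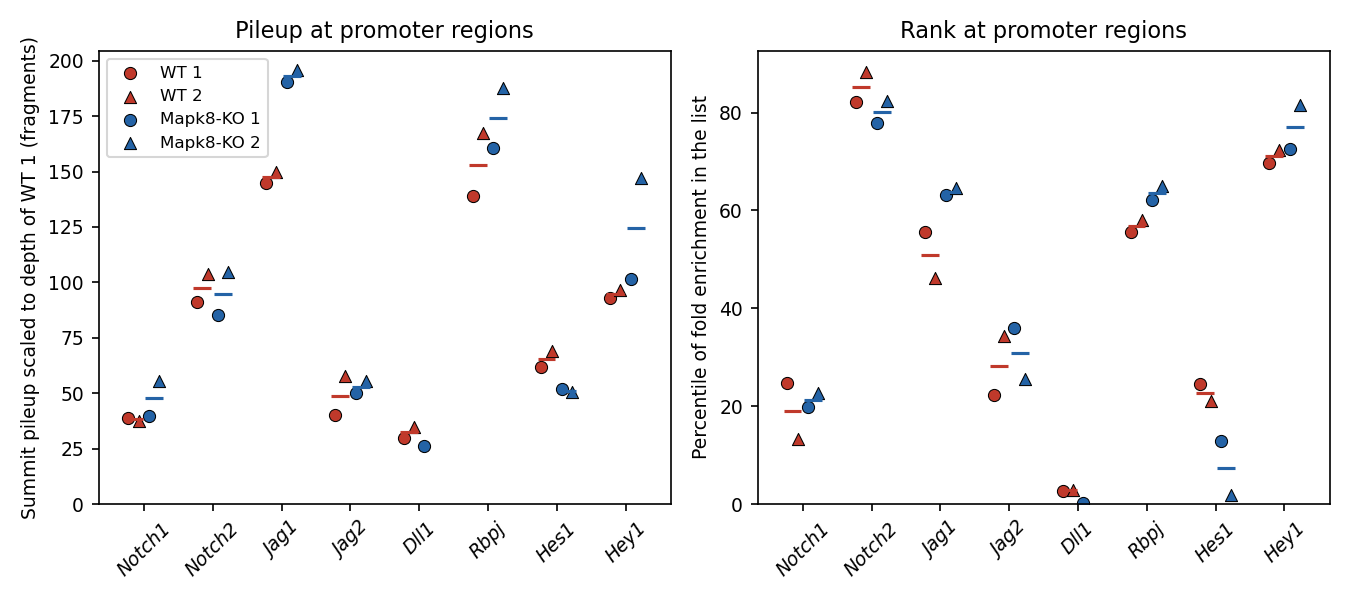
Summit pileup scaled to the depth of WT 1 (left) and percentile of fold enrichment (right) at the highest-ranking promoter region of 8 genes; each point is 1 library and the bars are means of 2 libraries. Notch3 has no region within 2 kb of its start site, and Dll1 was not called in Mapk8-KO 2. Depth-scaled pileups at Notch1, Jag1 and Hey1 are higher in both Mapk8-KO libraries and those at the Hes1 region shown in both WT libraries, none past the test.

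Member regions with an AP-1 motif had a median log2 difference of 0.25 (n = 11 called in all libraries), and those without one −0.057 (n = 36). Those with the motif ran from −0.54 to 0.44. Over all regions the medians were 0.083 and −0.094, and the difference between members and atlas was not tested. At promoters the median was −0.12 (n = 16) and outside them 0.083 (n = 31), against −0.14 and 0.0081 over all regions. No member region at a promoter had an AP-1 motif in the window. All 16 therefore lie in the group without the motif, and the splits by motif and by promoter are not separate. With centring on promoter regions the median of all regions was 0.066 in place of −0.054, so these signs hold relative to the centring.

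The promoters of 31 other genes of the pathway were examined in the same fit. Of these genes 28 had a called region (90.3%, against 64.7% of coding genes) and 24 had one in all libraries (77.4%, against 55%). Among 40 regions, 26 of them called in all libraries, none passed an adjusted p of 0.05. The median log2 difference of the 26 was −0.20, against −0.14 for all promoters. By rank, 2 of the 26 passed the gap toward Mapk8-KO (7.69%, where all regions gave 3.78%) and none toward WT (where all regions gave 2.65%). Of the 40 regions, 1, at Maml2, was called in WT only (2.5%, against 2.17%). The lowest adjusted p was 0.0609, at Maml3, which encodes a coactivator of the Notch complex. Its promoter had 48 and 31 fragments in WT and 76 and 56 in Mapk8-KO (log2 −0.78 ± 0.22 SE). Without Mapk8-KO 1, in a fit with 1 Mapk8-KO library, Maml3, Psen2 and Adam10 passed, with limma adjusted p of 0.00706, 0.0238 and 0.0180, and without Mapk8-KO 2 none of them did (0.851, 0.980 and 0.978). Psen2, a catalytic subunit of the protease that frees the receptor, was the other gene higher by rank, at 53 and 49 against 84 and 64 fragments (log2 −0.55 ± 0.20 SE, limma adjusted p = 0.233). Hey2, a relative of Hey1, and Nrarp, a feedback inhibitor, gave −0.23 ± 0.17 and −0.20 ± 0.20 (SE), with limma adjusted p of 0.650 and 0.754.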

How the data were processed

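In the study, the authors aligned read pairs to mm10 with Bowtie2, dropped reads mapping to several places, and called peaks in each library with MACS2. The labels also name Trimmomatic 0.36 and STAR 2.5.3, without a role, and the study's methods describe both for its RNA-seq. A shift of read ends for the Tn5 site is not given in the sources used here. The deposited lists hold a fold (a ratio of summit pileup over local background), −log10 p and −log10 q, a score derived from q, and the summit's offset from the start, all by the authors.

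Members and lists were chosen with earlier results of these data known. Genes, start sites and promoters (within 2 kb) came from GENCODE M21. Summit pileups were solved from fold and −log10 p; at least 99.996% came out whole to within 0.05, as they did when tested on simulated data. limma 3.58.1 in R 4.3.3 used a variance trend and Benjamini-Hochberg adjustment. Permutation tests used scipy 1.17.1. The study's DESeq2 test needs reads per region and was not run. Total read numbers are unknown. Named regions were, per gene, the highest-ranking promoter region and the highest-ranking region outside promoters, those called in 1 genotype only or past the rank gap of 10 points or the limma threshold, and Hes1 or Hey1 promoter regions with an RBPJ motif. The sequence of 1 member region is not reported here.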

Additional observations from a re-analysis of the deposited data

How the results depend on the processing

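Across 122 alternatives on 12 results, 79 stayed within the limits set, 41 moved and 2 reversed; the causes were not tested beyond construction (fewer libraries, regions or genes). No member region passed limma in the alternatives but 1: without Mapk8-KO 1 there were 3 (range over the 4 left-out libraries 0 to 3), the Notch3 intron (log2 1.02), the Hey1 promoter (−0.63) and a Notch1 region near Sec16a (−0.82); without Mapk8-KO 2 these were 0.40, −0.10 and −0.17. A fit without a library leaves its arm with 1, assumed to vary like the other arm. Among 17 named regions under 11 settings, 9 of 187 values changed sign, in 7 regions whose reported differences were at most 0.26 in size, and 2 values passed the test, both without Mapk8-KO 1. The count over all regions was 244, and it was 0 without the variance trend (3985 at unadjusted p under 0.05) and with fold enrichment (2731), 29 with quantile normalization, 16 with centring on promoters, 386 with the replicate block, 83 with region-wise ratios (chosen after the data were seen), and 5 to 1718 without each library: 23 without WT 1, 5 without WT 2, 1718 without Mapk8-KO 1 and 21 without Mapk8-KO 2. The share higher in WT was 82.0%, against 100% with centring on promoters, 94.0% with region-wise ratios, 73.6% with the block, and without WT 1, WT 2, Mapk8-KO 1 and Mapk8-KO 2 in turn 91.3%, 20%, 63.3% and 95.2%. Centring on promoters moved the median of all regions to 0.066 and that of members to 0.12; without each library the members' median ran from −0.055 to 0.053.

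Regions called in WT only numbered 1 with q under 0.001, 1 with lists of equal length, 0 with gene bodies alone, 1 with 10 kb flanks and 2 to 11 without each library (11 without WT 2, 9 without Mapk8-KO 1). Those in Mapk8-KO only were 2 with peaks covering 50% of a region and 1 to 7 without each library (7 without Mapk8-KO 2, 2 without WT 1 or Mapk8-KO 1). Regions ranked higher in Mapk8-KO were 0 with lists of equal length, 1 with gene bodies alone, 1 with 10 kb flanks, 1 with −log10 p, 0 with a gap of 20 points, 0 with percentiles among shared regions (chosen after the data were seen) and 2 to 9 without each library (9 without WT 1, 5 without Mapk8-KO 2). Those ranked higher in WT were 1 with −log10 p, 1 with a gap of 5 points, 1 with the replicate block and 0 to 11 without each library (11 without Mapk8-KO 1, 3 without WT 2). For these counts of calls and ranks, shares over all regions in the same settings were not computed. The difference in peak share reversed to −0.00111 percentage points with gene bodies alone. The AP-1 share was 8.75% within 50 bp of the summit, against 17.0% of the atlas. Other pathway genes past limma were 1 with the replicate block (Maml3, limma adjusted p = 0.0408) and 0 to 3 without each library (Maml3, Psen2 and Adam10 without Mapk8-KO 1). The Mapk8 promoter difference ran from −0.55 to 0.023 and reversed without Mapk8-KO 2.

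The libraries share only replicate numbers: deviations of same-numbered libraries had r = 0.0392 over 40159 regions, which are not independent. The replicate block changed no call of a member region by limma. Blocked calls of peaks gave no value and were not run.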
